A study of Homo sapiens with 12 samples.

Results

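Of 13300 genes that passed a filter on level in the leukaemia line SEM, 456 make up the chromosome 8 group, and their RNA was lower in IKZF1 knockout (KO) cells than in wild type (WT) cells along both arms. The group takes each chromosome 8 gene, coding or not, that reached an FPKM of 1 in 3 or more of the 12 libraries. FPKM counts sequenced fragments relative to transcript length and depth, with the authors' scaling between libraries. The table holds 2386 chromosome 8 genes, of which 461 passed that filter, and 5 of these are left out by the rule that defines the group. Just inside the filter, HMGB1P41 had 1.01 FPKM in the last library it needed, and just outside it ZNF517 had 0.998 FPKM. The group was chosen because it was lower in KO, so every value of KO against WT below is a description, with no test.

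The series asks, by its title, how IKZF1 deletion relates to cytarabine resistance in B cell precursor acute lymphoblastic leukaemia. RNA was sequenced from SEM, an established line of that leukaemia, in 12 libraries. The 4 groups of 3 libraries each were KO with AraC, WT with AraC, untreated KO and untreated WT. Cytarabine (AraC), a cytidine analogue that is built into DNA and stalls replication, was given at 1 µM for 16 hours. All groups share the SEM background, and the knockout, which the sample descriptions call "homo", is 1 line, so that its genotype and its other properties as a line cannot be told apart. The sources used here do not say how the knockout was made.

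Chromosome 8 is an autosome whose short (p) and long (q) arms meet at the centromere, where few genes are found. Its genes belong to no common pathway. They include the catalytic subunit of DNA-dependent protein kinase, a cohesin subunit, ribosomal proteins, subunits of translation initiation factor 3, a cytochrome of the respiratory chain, kinases of lymphocyte signalling and a fibroblast growth factor receptor. A gene's neighbours on a chromosome are thus a group by position and not by function. The files hold RNA levels, and DNA was not measured.

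Reads assigned to genes numbered 22733932 in WT AraC replicate 1 and 16342979 to 16913784 in each of the other 11 libraries. IKZF1 itself lies on chromosome 7. It had 20.5 to 21.5 FPKM in untreated KO and 22.1 to 22.6 in untreated WT libraries, and with AraC 14.2 to 15.0 in KO and 14.2 to 15.3 in WT libraries, so its RNA level does not check the knockout label. Of 12 B cell precursor markers 10 passed the filter, and the sum over the list was 881 to 885 FPKM in untreated KO and 616 to 637 in untreated WT libraries, and with AraC 622 to 634 in KO and 412 to 442 in WT libraries. Of 5 T cell markers TRAC alone passed, CD3D, CD3G and CD2 were at 0, and the sum was 74.1 to 79.7 FPKM in untreated KO and 71.3 to 76.8 in untreated WT libraries. None of 5 erythroid markers passed, and ELANE of myeloid cells was at 0. Summed myeloid markers were low, at 1.58 to 2.08 FPKM in untreated KO and 2.99 to 4.39 in untreated WT libraries, and with AraC 2.93 to 4.21 in KO and 6.32 to 7.72 in WT libraries. The part of these marker differences in the chromosome 8 values was not tested, and in bulk RNA fewer cells of a kind and less RNA per cell cannot be told apart. KO AraC replicate 3 stood apart from its 2 replicates, as chi-square divided by its degrees of freedom came to 7.04 and 8.79 for its pairs, against 2.27 to 4.51 for the other 10 replicate pairs.

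The 456 genes run from position 64091 to position 145066685 (GRCh38), with 161 on the p arm and 295 on the q arm. The last gene of the p arm is HGSNAT, ending at 43202855, and the first of the q arm is SPIDR, starting at 47260575. Of the 456, 357 are protein-coding, 41 are antisense RNAs and 22 are long intergenic RNAs. The other 36 are pseudogenes, small RNAs and further non-coding classes.

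Without AraC, the difference between KO and WT on the log2(FPKM + 0.5) scale had a median of -0.28 over the 456 genes, with a middle range (lower to upper quartile) of -0.42 to -0.11. At the median gene the KO level was 81.2% of the WT level. Of the 456, 391 lay below 0. The 12839 tested genes of the other chromosomes had a median of 0.02 and a middle range of -0.13 to 0.15. The upper quartile on chromosome 8 was thus close to the lower quartile elsewhere.

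With AraC, the median over the 456 genes was -0.25 (middle range -0.41 to -0.07), which is 82.5% of the WT level at the median gene, and 378 lay below 0. The genes of the other chromosomes had a median of 0.01. The untreated and treated comparisons use different libraries, and 354 of the 456 genes were below 0 in both of them. A further 41 were above 0 in both, and 61 had opposite signs. Over the 456 genes the 2 differences correlated at a Pearson's r of 0.653, a description across genes of 1 chromosome, which are not independent replicates. With the 5 genes left out by the rule added back, the medians were -0.28 and -0.25. With no filter on level the medians were nearer 0, at -0.079 and -0.090 over 1050 chromosome 8 genes.

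**Figure D1:**
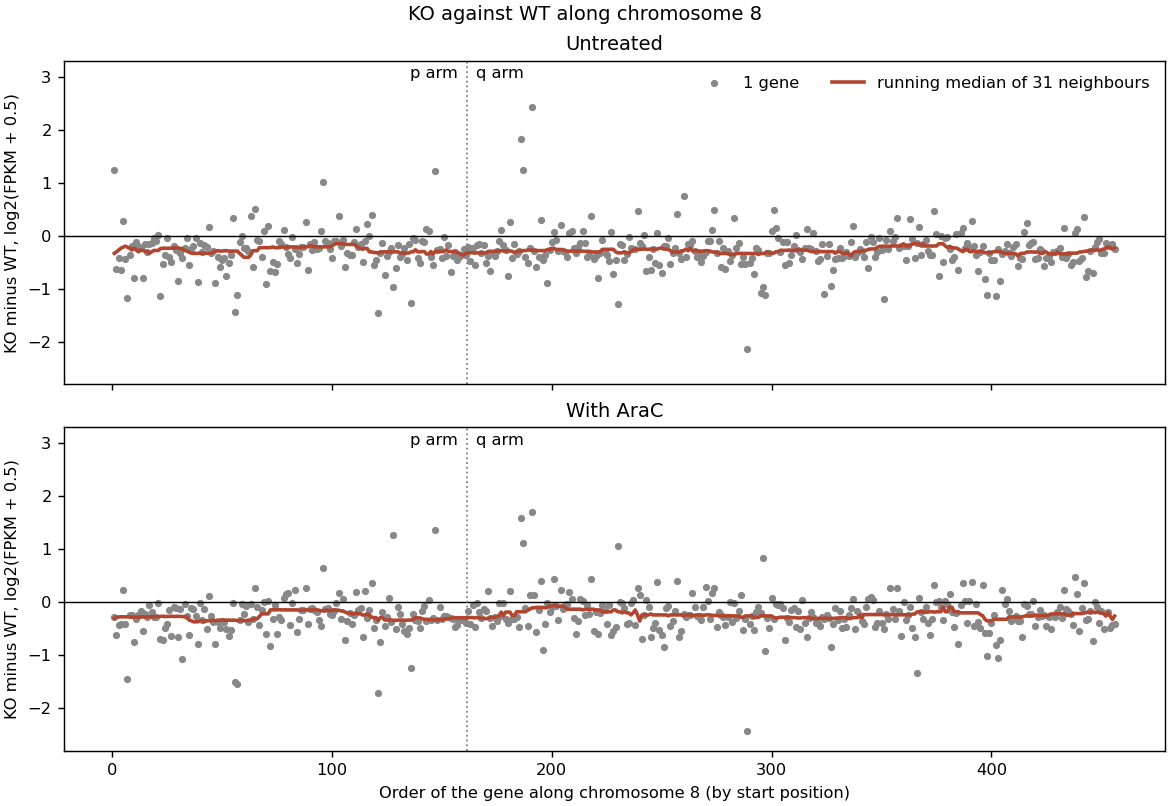
Difference between KO and WT (y axis, log2(FPKM + 0.5)) for each of the 456 chromosome 8 genes in their order along the chromosome (x axis), untreated above and with AraC below; grey points are genes, the red line is the running median of 31 neighbours and the dotted line parts the arms. The running median stays below 0 from end to end of both arms in both panels, while a few genes, such as TOX at 1.83 untreated, lie far above it.

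Library by library, the separation of the groups varied between genes. Without AraC, all 3 KO libraries lay below all 3 WT libraries for 290 of the 456 genes and above them for 25, and the groups overlapped for 141. Over all 13300 genes, 19.4% were separated downward and 22.8% upward in this comparison. With AraC, the KO libraries lay below for 257 genes and above for 28, where 21.5% and 21.9% of all genes were so separated. In both conditions 218 genes were separated downward and 16 upward, against 11.1% and 13% of all genes. Since the group was chosen on this contrast, nothing is read from these shares.

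The lower levels were spread over both arms. On the p arm the median difference was -0.25 without and -0.28 with AraC, and 140 and 142 of 161 genes lay below 0. On the q arm it was -0.28 without and -0.24 with AraC, and 251 and 236 of 295 genes lay below 0. In 15 windows of 10 Mb, which held 8 to 76 genes each, every window's median was below 0 in both conditions. Without AraC the window medians ran from -0.35 in the window at 70 to 80 Mb to -0.11 at 130 to 140 Mb. With AraC they ran from -0.31 at 40 to 50 Mb to -0.07 at 60 to 70 Mb. No more than 2 genes in a row were above 0 in both conditions anywhere on the chromosome. At the end of the q arm and beside the centromere, C8orf33, the last gene, differed by -0.25 and -0.41 without and with AraC, HGSNAT by -0.36 and -0.39 and SPIDR by -0.21 and -0.17. The first gene by position, the pseudogene AC144568.1, had overlapping groups in both conditions.

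Among the chromosomes, 8 was one of a pair with low medians. Chromosome 13 had a median of -0.49 without and -0.43 with AraC over 225 genes, which is 68.8% and 72.1% of the WT level at its median gene. The 21 others lay between -0.00 and 0.05 without AraC and between -0.01 and 0.07 with it. The share of genes below 0 was 85.8% on chromosome 8 without AraC, against 39.0% to 50.2% on those 21 chromosomes.

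**Figure D2:**
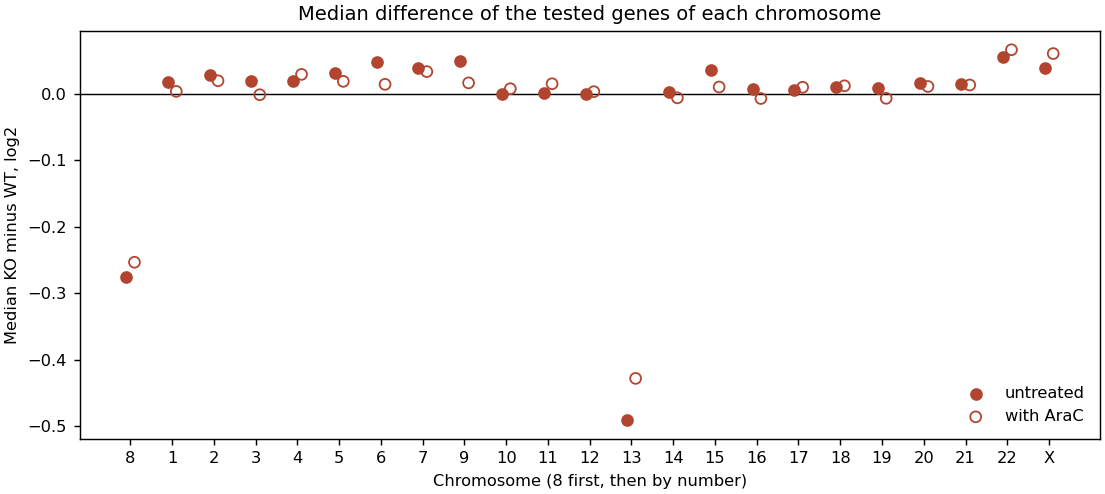
Median difference between KO and WT (y axis, log2) over the tested genes of each chromosome (x axis, 8 first), untreated as filled and with AraC as open circles. Chromosomes 8 (-0.28 and -0.25) and 13 (-0.49 and -0.43) lie below 0, and the 21 others lie within 0.07 of it.

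The lower levels were found in each of the 6 KO libraries. Set against the WT mean of the same treatment, the median over the 456 genes was -0.26, -0.25 and -0.25 in the 3 KO libraries with AraC, and -0.30, -0.25 and -0.27 in the 3 untreated KO libraries. Each WT library, set against its 2 replicates, had a median between -0.02 and 0.03. In each KO library 352 to 386 of the 456 genes were below the WT mean. The p arm medians ran from -0.29 to -0.24 and the q arm medians from -0.30 to -0.23 over the 6 KO libraries, with 0.00 to 0.02 for the other chromosomes in the same libraries. KO AraC replicate 3 had its median between those of its replicates and 352 genes below the WT mean, against 371 and 372 in them. Without it the treated median was -0.25. As a share of all reads, the 456 genes took 3.10% to 3.12% in KO libraries with AraC and 3.78% to 3.82% in WT libraries with AraC. In untreated cells they took 2.97% to 3.01% in KO and 3.77% to 3.79% in WT libraries.

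**Figure D3:**
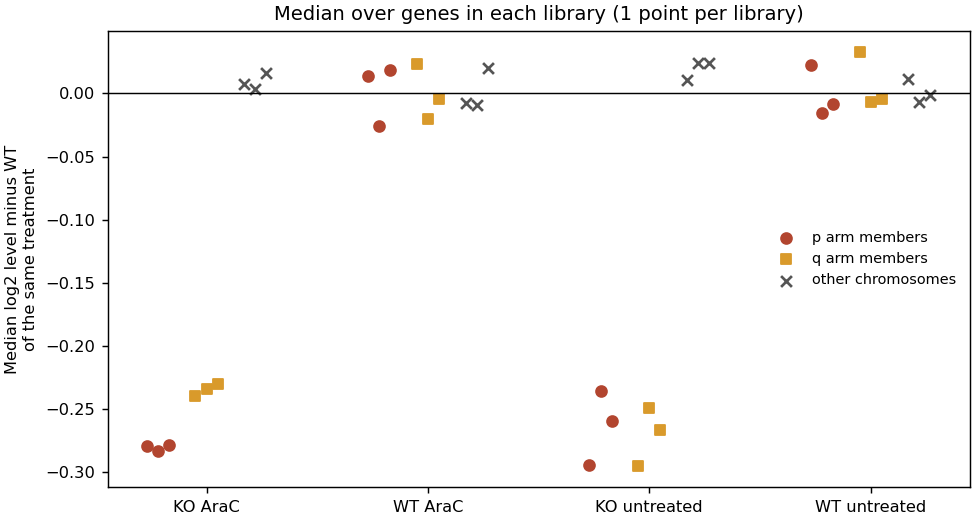
Median log2 level of p arm members (circles), q arm members (squares) and genes of other chromosomes (crosses) in each library, relative to the mean WT level of the same treatment (for WT libraries, the other 2 WT libraries). All 6 KO libraries have medians of -0.23 or lower on both arms and near 0 for the other chromosomes, and the WT libraries stay near 0.

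The medians were below 0 at all expression levels and in coding and non-coding genes. In 3 equal bins of 152 genes by mean level, the median without AraC was -0.23 for the lowest, -0.28 for the middle and -0.29 for the highest bin, and with AraC -0.25, -0.27 and -0.24. Near the pseudocount of 0.5 the log2 scale understates a difference, which touches the lowest bin. Protein-coding genes had medians of -0.28 and -0.27 without and with AraC, and the 99 non-coding genes -0.23 and -0.18. The KO and WT libraries overlapped for 61 of the 99 non-coding genes without and 77 with AraC. For the 357 protein-coding genes they overlapped for 80 and 94, and over all 13300 genes for 7681 and 7516. Of the 5 most abundant non-coding members, SNHG6, a host gene of small nucleolar RNAs, differed by 0.07 and 0.19, and the pseudogene RPSAP47 by 0.46 and 0.27. AC084125.4, an antisense RNA that lies within RECQL4 on the other strand, differed by -0.66 and -0.32. The sources used here do not give library strandedness, so reads of an antisense RNA and of the gene across from it may not be told apart.

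Genome maintenance genes copy and repair DNA and hold sister chromatids together. The mean log2 differences of the 25 genes of that list were all below 0 in both conditions, though the KO and WT libraries overlapped for 6 of them without and 2 with AraC. They had medians of -0.34 without and -0.26 with AraC. All 456 chromosome 8 genes had medians of -0.28 and -0.25, and all 13300 genes 0.01 and 0.00. Each list below is likewise drawn from the 456 genes, so its values are to be set beside those of the 456. PRKDC, the catalytic subunit of the kinase that joins broken DNA ends, had 62.8, 53.6 and 56.3 FPKM in untreated KO libraries, against 79.3, 82.05 and 77.4 FPKM in untreated WT libraries. With AraC it had 68.2, 67.5 and 62.8 FPKM in KO, against 91.8, 90.3 and 83.3 FPKM in WT libraries. The groups did not overlap in either condition, and the log2 differences were -0.47 and -0.42.

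RAD21, the cohesin subunit cut by separase, had 72.5, 78.5 and 77.2 FPKM in untreated KO and 101.5, 96.4 and 98.8 FPKM in untreated WT libraries. It had 65.6, 63.7 and 68.6 FPKM in KO with AraC and 78.1, 75.02 and 79.3 FPKM in WT with AraC. Again every KO library lay below every WT library of the same treatment, with differences of -0.38 and -0.23. Other members of the list were TERF1, which binds telomeres (-0.44 without and -0.55 with AraC), the helicase WRN (-0.36 and -0.40), the ubiquitin-conjugating variant UBE2V2 (-0.54 and -0.46) and TOP1MT, the mitochondrial topoisomerase (-0.81 and -0.58). At the small end, the MRE11 complex subunit NBN differed by -0.15 and -0.24, GINS4 of the replicative helicase by -0.12 and -0.07, and the repair polymerase POLB by -0.01 and -0.26.

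Genes of translation and RNA processing were below 0 in all 27 cases in both conditions, with medians of -0.32 without and -0.34 with AraC. The KO and WT libraries overlapped for 1 of the 27 without and 6 with AraC. Of all 456 chromosome 8 genes, 85.8% and 82.9% lay below 0. EIF3E, a subunit of translation initiation factor 3, had 74.2, 79.5 and 82.8 FPKM in untreated KO and 125.5, 119.6 and 121.9 FPKM in untreated WT libraries. With AraC it had 60.5, 58.0 and 68.7 FPKM in KO and 85.1, 79.5 and 84.0 FPKM in WT libraries. The groups stayed apart, and the differences were -0.63 and -0.41.

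EIF4EBP1, which holds back cap-dependent translation when it is not phosphorylated, had 57.9, 63.1 and 63.3 FPKM in untreated KO and 105.1, 96.2 and 104.8 FPKM in untreated WT libraries, a difference of -0.73. RPL8, a ribosomal protein and the most abundant of these genes, had 565.6, 572.5 and 569.2 FPKM in untreated KO and 713.6, 703.1 and 720.4 FPKM in untreated WT libraries. With AraC its groups overlapped, at 480.7, 479.8 and 558.1 FPKM in KO and 523.7, 558.9 and 613.5 FPKM in WT libraries. RPL8, RPL7, RPL30, RPS20 and PABPC1 have near-identical copies elsewhere in the genome, so how reads were divided among copies is uncertain. The nucleolar factors BOP1 (-0.41 without and -0.45 with AraC), DCAF13 (-0.43 and -0.44) and RRS1 (-0.29 and -0.34), all of ribosome assembly, were about as low in both conditions.

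Genes of mitochondria and metabolism had medians of -0.35 without and -0.24 with AraC, and 27 and 25 of 28 tested members of the list of 32 were below 0. CYC1, the cytochrome c1 of respiratory complex III, had 79.3, 83.2 and 80.2 FPKM in untreated KO and 108.2, 109.0 and 111.2 FPKM in untreated WT libraries. With AraC it had 60.5, 60.5 and 61.3 FPKM in KO and 78.2, 87.2 and 82.7 FPKM in WT libraries. No library of one group reached the other, and both differences were -0.43 to -0.44. NAPRT, which makes NAD from nicotinic acid, was lower by more, at -0.85 without and -0.71 with AraC, and the mitochondrial iron importer SLC25A37 at -0.91 and -0.60. COX6C, a subunit of respiratory complex IV, was near 0 in both conditions at -0.05 and -0.05.

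Chromatin and transcription genes had medians of -0.28 in both conditions, and 26 of 28 tested members of the list of 32 were below 0 in each. Among them were the heat shock factor HSF1 (-0.49 without and -0.51 with AraC), the chromatin remodeller CHD7 (-0.52 and -0.45), the histone acetyltransferase KAT6A (-0.26 and -0.34) and POLR3D of RNA polymerase III (-0.51 and -0.63). MYBL1, of the MYB family, was above 0 in both, at 0.21 and 0.23. Genes of protein breakdown and cell survival had medians of -0.26 and -0.26, with 19 and 16 of 20 tested members of 24 below 0. LAPTM4B, a lysosomal membrane protein, had 104.3, 112.1 and 113.9 FPKM in untreated KO and 185.8, 174.4 and 182.1 FPKM in untreated WT libraries. With AraC it had 88.3, 88.4 and 92.5 FPKM in KO and 132.5, 124.0 and 131.1 FPKM in WT libraries. Its groups were wide apart in both conditions, with differences of -0.71 and -0.52, and those of the lysosomal protease CTSB were -0.84 and -0.66.

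Signalling genes were mixed, with medians of -0.12 and -0.13 and 14 and 18 of 22 tested members of 24 below 0. FGFR1, a receptor tyrosine kinase for fibroblast growth factors at 38400215 to 38468834, had 2.23, 2.32 and 2.10 FPKM in untreated KO and 5.71, 5.94 and 6.44 FPKM in untreated WT libraries. With AraC it had 1.59, 1.76 and 1.69 FPKM in KO and 4.46, 4.59 and 4.90 FPKM in WT libraries. At -1.26 and -1.24 its difference was the lowest of the protein-coding members with a group mean of 5 FPKM or more.

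The kinases of lymphocyte signalling differed among themselves. PTK2B, a kinase of the focal adhesion kinase family, had 60.5, 56.6 and 56.7 FPKM in untreated KO and 57.5, 60.4 and 58.4 FPKM in untreated WT libraries, and with AraC 47.4, 48.2 and 44.0 FPKM in KO and 45.5, 47.2 and 47.3 FPKM in WT libraries. Its groups overlapped in both conditions. LYN, a SRC family kinase, also overlapped (-0.10 and -0.02), while BLK, the SRC family kinase of B cells, was below WT in both conditions (-0.40 and -0.15).

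**Figure D4:**
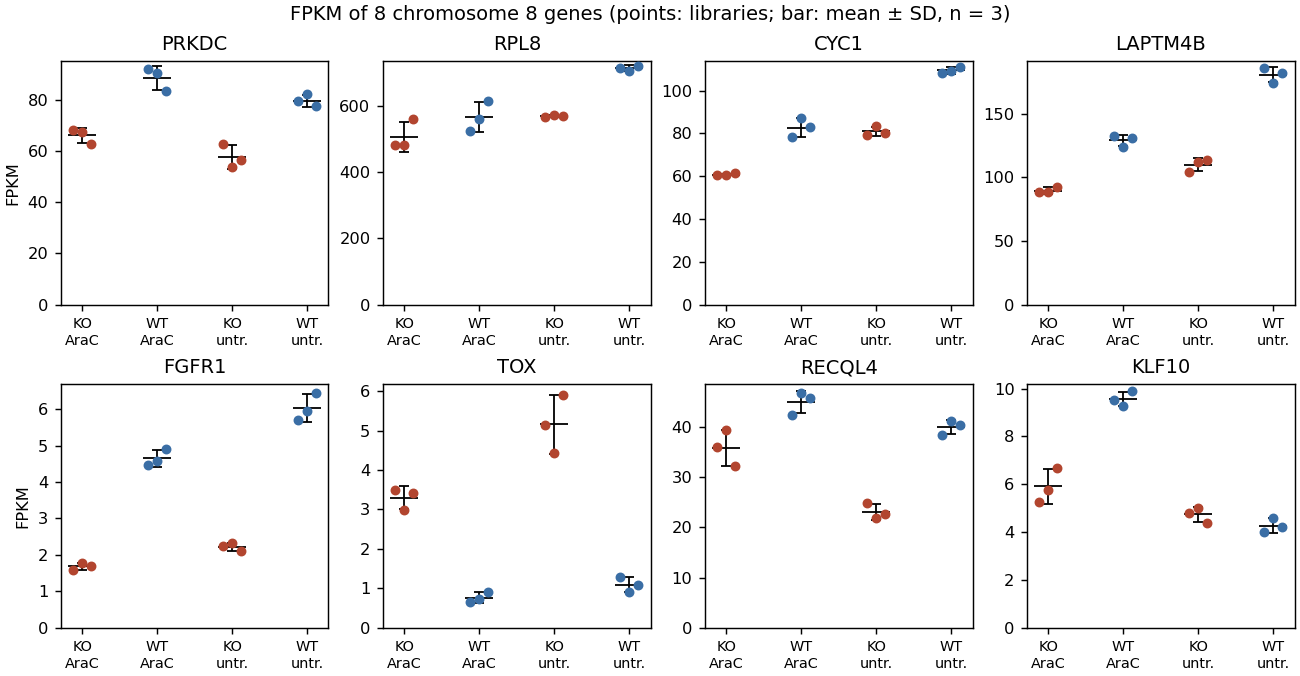
FPKM (y axis, from 0) of 8 chromosome 8 genes in the 4 groups; points are libraries and bars the mean with its SD (n = 3). PRKDC, CYC1, LAPTM4B and FGFR1 are lower in KO with and without AraC, RPL8 is lower without AraC and overlaps with it, and TOX runs the other way. RECQL4 and KLF10 show unequal AraC effects in KO and WT.

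A small number of genes were higher in KO. TOX, a nuclear factor of lymphocyte development at 58805418 to 59119208, had 5.13, 4.42 and 5.91 FPKM in untreated KO and 1.28, 0.904 and 1.10 FPKM in untreated WT libraries. With AraC it had 3.50, 2.98 and 3.42 FPKM in KO and 0.656, 0.737 and 0.906 FPKM in WT libraries. Its differences were 1.83 and 1.59, and those of the antisense RNA AC090152.1, which overlaps the start of TOX, were 1.24 and 1.12. Smaller positive differences in both conditions were seen for MFSD3, of the major facilitator family of transporters (0.36 and 0.36), TTPA, the tocopherol transfer protein (0.29 and 0.40), LY6E, a membrane protein (0.28 and 0.38), ZNF395 (0.27 and 0.28) and PDP1, a phosphatase that activates pyruvate dehydrogenase (0.11 and 0.18). PPP3CC, a catalytic subunit of calcineurin, was higher without AraC and overlapped with it (0.34 and -0.01).

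As a mean of both conditions, 12 of the 456 genes differed at least 2-fold, against 2% of all genes. Of these, 8 were lower in KO (AC100797.1, SORBS3, AC037459.4, ADGRA2, FGFR1, SDC2, RIDA and RHPN1) and 4 were higher (ANK1, TOX, AC090152.1 and AC022182.2). Of these 12, those other than FGFR1, RIDA and TOX are named after their values were seen. SDC2, the heparan sulfate proteoglycan syndecan 2, had 0.377, 0.258 and 0.335 FPKM in untreated KO and 3.45, 2.83 and 3.09 FPKM in untreated WT libraries, and with AraC 0.354, 0.360 and 0.451 FPKM in KO and 4.52, 4.19 and 4.05 FPKM in WT libraries. In KO it lay under the filter in every library. ANK1, ankyrin 1, had 1.22, 1.28 and 1.32 FPKM in untreated KO and 0.239, 0.246 and 0.289 FPKM in untreated WT libraries. In untreated WT it lay under the level of the filter in every library. Its KO libraries lay above its WT libraries with AraC too, at a difference of 1.37. A gene can pass the filter through the genotype where it is high. The count of 12 includes such genes, so nothing is read from it against the 2% of all genes.

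AraC changed the chromosome 8 genes about as often as other genes, a contrast that did not choose the group and was tested. In KO cells 201 of 456 genes (44.1%) passed a Benjamini-Hochberg adjusted p of 0.05 in limma, where 44.4% of all 13300 genes did. Of the 201, 99 rose and 102 fell (19.8% and 24.7% of all genes did so), and the median effect was -0.01. In WT cells 231 genes (50.7%) passed, where 49.7% of all genes did, with 105 up, 126 down (24.1% and 25.6% of all genes) and a median of -0.02. Called the same way in both genotypes were 72 rising and 82 falling genes. The share of all genes called so is not given here, and nothing is read from these counts. The split into rising and falling genes differed between scalings. Under TPM it was 145 up with 52 down for KO and 182 up with 58 down for WT, and with plain library totals 144 with 59 for KO and 168 with 74 for WT. In either direction, 43.7% of all genes passed in KO and 54.1% in WT under TPM, and 44.3% and 53.3% with plain totals. The median of all genes was 0.09 under both in KO, against -0.03 on the deposited scale, and in WT 0.16 (TPM) and 0.13 (plain totals), against -0.01. The split was nearer even under quantile normalization, at 92 up with 94 down for KO and 113 with 109 for WT. With scaling factors taken without chromosome 8 it was 111 with 90 for KO and 115 with 120 for WT. In either direction, 40.8% of all genes passed in KO and 47.9% in WT under quantile normalization, and 44.05% and 50.2% without chromosome 8. Changes below are on the deposited scale.

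Changes of 2-fold or more were few. In KO 4 genes rose (DOK2, MIR3149, PAG1 and PTP4A3) and E2F5 fell, against 1.77% of all genes, and in WT 6 rose and 4 fell, against 2.14%. Some of these names were chosen after their values were seen. PAG1, an adaptor that holds the kinase CSK at the membrane, rose by 1.59 in KO and 1.85 in WT (limma adjusted p = 4.3e-07 and 1.4e-07). E2F5, a repressor of the E2F family, had 1.22, 1.31 and 1.53 FPKM in KO with AraC and 3.50, 3.15 and 3.24 FPKM in untreated KO libraries. In WT it had 2.47, 2.12 and 2.47 FPKM with AraC and 5.66, 5.49 and 5.82 FPKM untreated. Its log2 effects were -1.04 in KO and -1.11 in WT (limma adjusted p = 2.8e-06 and 1.3e-06), so it was low in KO and fell with AraC in both genotypes.

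Of 25 genome maintenance genes, 10 rose and 3 fell with AraC in KO, where 19.8% of all genes rose and 24.7% fell. In WT 11 rose and 4 fell, where 24.1% of all genes rose and 25.6% fell. The 8 that rose in both genotypes have no share of all genes beside them here, and nothing is read from that count. With TPM 18 rose and 0 fell in KO, and 17 rose and 1 fell in WT. In that setting 43.7% of all genes passed in KO and 54.1% in WT, in either direction. TPM also moved the median effect of all genes up, to 0.09 in KO and 0.16 in WT. ATAD2, a chromatin ATPase of replicating cells, had 67.2, 65.4 and 65.8 FPKM in KO with AraC and 40.2, 44.0 and 45.05 FPKM in untreated KO libraries. In WT it had 87.9, 86.0 and 85.1 FPKM with AraC and 52.1, 51.7 and 52.1 FPKM untreated. It rose by 0.61 in KO and 0.73 in WT (limma adjusted p = 8.1e-07 and 2.2e-07) and stayed lower in KO than in WT at each treatment. ESCO2, the acetyltransferase that establishes cohesion, rose by 0.78 in KO and 0.75 in WT, and GINS4 by 0.53 and 0.48. RAD21 fell by 0.20 in KO and by 0.35 in WT, and its call in KO was lost with TPM and with quantile normalization.

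Translation and RNA genes went mostly down on the deposited scale. In KO 18 of 27 fell and 2 rose, with a median of -0.21, where 24.7% of all genes fell and 19.8% rose. In WT 19 fell and none rose, with a median of -0.23, where 25.6% of all genes fell and 24.1% rose. Some other scalings brought the medians nearer 0, to -0.07 (TPM), -0.08 (plain totals) and -0.07 (quantile) for KO and -0.04, -0.07 and -0.06 for WT. With scaling factors taken without chromosome 8 they moved less, to -0.18 in KO and -0.21 in WT. There 17 fell and 2 rose in KO and 18 fell and 2 rose in WT, where 44.05% and 50.2% of all genes passed in either direction. Under TPM, plain totals and quantile normalization the KO counts were 10, 10 and 11 falling and 2, 2 and 3 rising. The WT counts were 10, 11 and 9 falling and 5, 5 and 7 rising. In either direction, 43.7%, 44.3% and 40.8% of all genes passed in KO and 54.1%, 53.3% and 47.9% in WT. RRS1 had 19.4, 18.3 and 21.6 FPKM in KO with AraC and 36.3, 39.7 and 33.6 FPKM in untreated KO libraries. WT libraries had 25.1, 24.3 and 26.1 FPKM with AraC and 46.0, 44.0 and 43.9 FPKM untreated. It fell by 0.87 in KO and by 0.81 in WT (limma adjusted p = 2.8e-06 and 3.2e-06), BOP1 by 0.53 and 0.49, and the exosome subunit EXOSC4 by 0.69 and 0.61. The effect on RPL8 in WT was -0.34 (limma adjusted p = 0.0015) and turned to 0.20 under quantile normalization, and those on RPL7, RPL30 and RPS20 in WT turned as well.

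Among mitochondrial and metabolic genes 10 of 28 fell and 2 rose in KO (24.7% and 19.8% of all genes), and 14 fell and 1 rose in WT (25.6% and 24.1%). With TPM 8 fell and 7 rose in KO, and 7 fell and 8 rose in WT, where 43.7% and 54.1% of all genes passed in either direction. The cholesterol synthesis enzymes SQLE (-0.40 in KO and -0.60 in WT) and FDFT1 (-0.43 and -0.53) and the cytochrome gene CYC1 (-0.41 and -0.40) fell in both genotypes. For the 3 remaining lists the shares of all genes are again 19.8% up and 24.7% down in KO and 24.1% up and 25.6% down in WT. With TPM they are again 43.7% in KO and 54.1% in WT, in either direction. Of 28 chromatin and transcription genes, 7 rose and 11 fell in KO and 8 rose and 12 fell in WT, and with TPM 8 rose and 6 fell in KO and 14 rose and 6 fell in WT. Of 22 signalling genes, 7 rose and 10 fell in KO and 7 rose and 7 fell in WT, and with TPM 9 rose and 7 fell in KO and 12 rose and 3 fell in WT. Of 20 protein breakdown and survival genes, 2 rose and 6 fell in KO and 3 rose and 7 fell in WT, and with TPM 8 rose and 4 fell in KO and 8 rose and 2 fell in WT. None of these 3 lists thus had a direction that held under both scalings. Other strong rises, in KO and in WT, were those of carbonic anhydrase CA2 (0.73 and 0.75), NDRG1, a stress-responsive gene (0.68 and 0.65), TACC1, a centrosomal coiled-coil gene (0.57 and 0.76), and FAM84B (0.64 and 1.06).

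**Figure D5:**
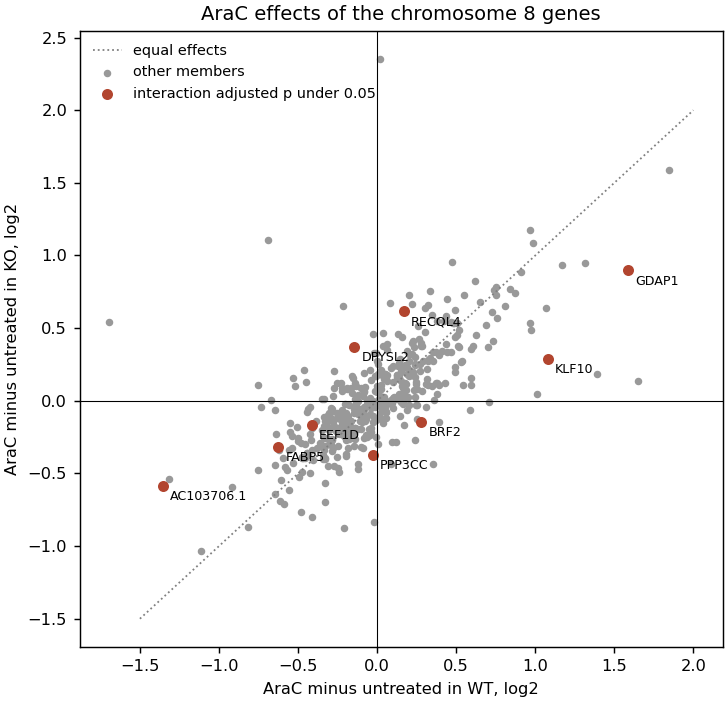
AraC effect in KO (y axis, log2) against that in WT (x axis, log2) for the 456 chromosome 8 genes; red points are the 9 genes whose effects differed by the interaction test and the dotted line marks equal effects. The other genes scatter around the line, some well off it without passing, such as CLU at 0.95 in KO and 0.47 in WT. KLF10 and GDAP1 lie below the line and DPYSL2, RECQL4 and AC103706.1 above it.

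The AraC effect differed between KO and WT for 9 of the 456 genes (interaction term, limma adjusted p under 0.05), where 2.69% of all 13300 genes passed. It was more positive in KO for 5 and more negative for 4, against 0.887% and 1.8% of all genes. KLF10, a transcription factor induced by transforming growth factor beta, had 5.27, 5.78 and 6.69 FPKM in KO with AraC and 4.82, 5.01 and 4.38 FPKM in untreated KO libraries. In WT it had 9.53, 9.27 and 9.89 FPKM with AraC and 4.01, 4.60 and 4.21 FPKM untreated. Its level in WT with AraC was above every other library, and the effects of 0.29 in KO and 1.08 in WT differed by -0.79 ± 0.11 (SE, limma adjusted p = 0.0097). The call for KLF10 within KO was lost without KO untreated replicate 3.

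GDAP1, a protein of the mitochondrial outer membrane, had 3.08, 3.29 and 3.21 FPKM in KO with AraC and 1.31, 1.76 and 1.41 FPKM in untreated KO libraries. WT libraries had 5.29, 5.10 and 5.19 FPKM with AraC and 1.33, 1.25 and 1.61 FPKM untreated. It rose in both, by less in KO, and the difference was -0.69 ± 0.13 (SE, limma adjusted p = 0.025). Neither KLF10 nor GDAP1 was separated downward in untreated KO.

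DPYSL2, a cytoskeletal protein of the CRMP family, had 22.96, 21.9 and 24.8 FPKM in KO with AraC and 18.0, 17.6 and 17.9 FPKM in untreated KO libraries. In WT it had 19.99, 20.7 and 21.1 FPKM with AraC and 22.9, 22.7 and 22.8 FPKM untreated. KO was thus below WT untreated (-0.35) and above it with AraC (0.17), and the effects differed by 0.52 ± 0.06 (SE, limma adjusted p = 0.003). Its effect in KO was 0.37, and that in WT was -0.14, which turned to 0.04 with TPM and 0.01 with plain totals and was not called without WT AraC replicate 1.

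RECQL4, a helicase of the RecQ family at 144511288 to 144517845, had 36.0, 39.5 and 32.2 FPKM in KO with AraC and 24.8, 21.9 and 22.6 FPKM in untreated KO libraries. WT libraries had 42.5, 46.9 and 45.7 FPKM with AraC and 38.5, 41.2 and 40.4 FPKM untreated. It rose by 0.62 in KO and changed by 0.17 in WT, which did not pass, with an interaction of 0.45 ± 0.10 (SE, limma adjusted p = 0.041). The fatty acid binding protein FABP5 had effects of -0.32 in KO and -0.62 in WT and an interaction of 0.31. The elongation factor subunit EEF1D had effects of -0.16 in KO, a call lost with TPM, plain totals and quantile normalization, and -0.41 in WT, and an interaction of 0.25. BRF2, a transcription factor of RNA polymerase III, had an interaction of -0.42 and PPP3CC one of -0.34. The ninth gene, the long intergenic RNA AC103706.1, had one of 0.77 and is named after its value was seen; it passed in 7 of 22 alternative settings. KLF10 and DPYSL2 passed in all 24 alternative settings, GDAP1 in 18, EEF1D in 14, PPP3CC and BRF2 in 12, FABP5 in 10 and RECQL4 in 8. The count of 9 was sensitive to single libraries, as was the share of all genes that passed, 2.69% with all 12. With any 1 WT library left out the count was 2 to 4 (0.955% to 1.54% of all genes). It was 4 without KO untreated replicate 2 (1.13%), 2 without KO AraC replicate 1 (1.26%) and 5 without KO AraC replicate 2 (1.85%).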

How the data were processed

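RNA levels were measured in 12 SEM libraries. The deposited values are FPKM per gene for 58735 genes, already scaled between libraries by the authors. The deposited table also gives each gene's length, a value of another kind that was used to turn FPKM back into reads (whole within 0.001 reads for 100% of values). Per the submitters' processing notes, the tools were fastp, featureCounts 1.5.0-p3 and HISAT2 2.0.5, on GRCh38; settings are not given in the sources used. Positions matched GENCODE 29. Values were analysed as log2(FPKM + 0.5) for the 13300 genes that reached 1 FPKM in 3 or more libraries. All 12 libraries entered one limma model (3.58.1, R 4.3.3) with a coefficient for each group and a variance trend, leaving 8 residual degrees of freedom. P-values are two-sided, Benjamini-Hochberg adjusted over all tested genes, at 0.05. The procedure was tried on simulated reads in which no library stood apart, as KO AraC replicate 3 does here. That trial does not bear on data with such a library. The labels do not say that replicates are separate cultures, so p-values measure only a spread between libraries that may be technical. The members and gene lists were chosen with earlier results of these data known. Named genes are the protein-coding members with the largest differences or called effects (mean of at least 5 FPKM in a group), the 6 most abundant tested members of each list, the most abundant and outermost members, and IKZF1; further list members are given as examples. Alternatives covered the pseudocount, filter, scaling, variance model, limma-voom, replicate block, a fit of only the groups compared and each library left out.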

Additional observations from a re-analysis of the deposited data

Results flagged for a closer look

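For 8 named chromosome 8 genes the AraC effect in KO differed from that in WT by the interaction test (limma, Benjamini-Hochberg adjusted p under 0.05). By that test 9 of the 456 chromosome 8 genes (1.97%) and 2.69% of all 13300 genes passed, so nothing is read from the count. On the log2 scale the effect in KO minus that in WT was -0.79 for KLF10, -0.69 for GDAP1, -0.42 for BRF2 and -0.34 for PPP3CC. It was 0.25 for EEF1D, 0.31 for FABP5, 0.45 for RECQL4 and 0.52 for DPYSL2. Of 24 alternative settings, KLF10 and DPYSL2 passed in all, GDAP1 in 18, EEF1D in 14, PPP3CC and BRF2 in 12, FABP5 in 10 and RECQL4 in 8.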

How the results depend on the processing

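The chromosome 8 medians of KO against WT were below 0 in every setting tried. The untreated median of -0.28 was -0.25 at pseudocount 1 and -0.079 unfiltered, which brings in rarely detected genes (1050 in all), and -0.28 to -0.25 with each library left out. The treated median of -0.25 was -0.28 at pseudocount 0.1, -0.23 at pseudocount 1, -0.090 unfiltered, -0.27 with the filter at 5 FPKM, -0.33 with TPM, -0.26 with quantile normalization, -0.31 with plain library totals, -0.27 with scaling factors taken without chromosome 8 and -0.27 with protein-coding genes alone, and -0.26 to -0.24 with each library left out. The AraC calls ranged from 172 to 201 in KO and from 201 to 244 in WT with each library left out. Of all genes, 38.3% to 43.7% passed in KO and 43.4% to 51.3% in WT in those fits. With only the groups compared in the fit, the calls were 164 in KO and 242 in WT, where 37.3% and 50.4% of all genes passed. The interaction count of 9 of 456 stood beside 2.69% of all tested genes. It was 5 of 1050 with no filter (beside 0.96%) and 15 of 357 with protein-coding genes alone (5.34%). It was 4 with no variance trend (2.26%) and 21 with limma-voom on the recovered reads (4.7%). With each library left out it was 2 to 12, where 0.955% to 2.56% of all genes passed. The cause was not tested. Replicate numbers are shared by the groups, but over all groups same-numbered libraries did not deviate together (18 pairs, r from -0.05 to 0.115, 6 best with their own number). Treated KO and treated WT libraries each matched best with their own number, at r of 0.042, 0.061 and 0.115, a hint from the data and not the design. With the replicate block the counts were 199 in KO, 228 in WT and 5 for the interaction. Of all genes, 43.65%, 48.7% and 1.79% passed in that setting. Single AraC effects that turned were those of DPYSL2 in WT (0.044 with TPM, 0.0078 with plain totals) and, under quantile normalization, of RPL8 (0.20), RPL7 (0.12), RPS20 (0.13), RPL30 (0.11), YWHAZ (0.012) and VDAC3 (0.0081) in WT and of PABPC1 (0.04) and RPL30 (0.046) in KO. The depth, 22733932 reads in WT AraC replicate 1 and 16342979 to 16913784 in the other 11 libraries, limits the values of genes near 1 FPKM.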
